A study of Mus musculus with 8 samples.

Results

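The keratin genes of the mouse were followed in embryonic molar tooth germs in which Sonic hedgehog (Shh) signalling had been targeted. Members were taken by name, as genes with the symbol Krt and a number, read from probe sets that the array annotation pairs with a single gene. The rule gave 48 keratin genes, measured by 61 probe sets, of 18193 genes on the array. A gene was tested where its mean log2 value over the 8 arrays reached 6.12, a signal of 60.3. That filter left 28 keratins among 13008 genes tested, and 20 keratins were below it. A further probe set that names both Krt17 and Krt14 was not used.

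Pregnant ICR mice, an outbred strain, were injected into the peritoneum when their embryos were at embryonic day 14, and the tooth germs of the lower jaw were collected 24 h later. Dams received 10 mg/kg of 5E1, an IgG1 antibody against Shh protein, or 10 mg/kg of 40-1a, an IgG1 antibody against β-galactosidase that serves as its isotype control. Others received 10 mg/kg of cyclopamine, an antagonist of the Hedgehog signal transducer Smo, or 1 ml of phosphate-buffered saline (PBS). Each group had 2 arrays, 8 in all. The labels do not say whether the samples of a group came from separate litters or how many germs each pooled, so p-values measure only the spread between these samples.

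Keratins form the intermediate filaments of epithelial cells. Each filament pairs an acidic type I keratin with a basic type II keratin, and the pair in use marks the kind of epithelium: Krt5 with Krt14 or Krt15 in basal cells, Krt8 with Krt18 or Krt19 in simple epithelia, Krt1 with Krt10 in epidermal suprabasal cells and Krt4 with Krt13 in those of the oral lining. Hair keratins build the shaft of the hair and hard structures such as the papillae of the tongue, and a further group belongs to the inner root sheath that surrounds the growing hair. The tooth germ at this age is a cap of epithelium around mesenchyme, continuous with the oral lining.

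By class, all 3 basal keratins were above the filter, as were 4 of 5 simple keratins (not Krt20), 7 of 11 suprabasal keratins (not Krt2, Krt12, Krt76 or Krt78) and all 5 inducible keratins, which are known from wounded or rapidly dividing epithelia and the hair follicle (Krt6a, Krt6b, Krt16, Krt17 and Krt75). Of 12 hair keratins measured, 4 were above it (Krt31, Krt32, Krt36 and Krt81). Of 7 inner root sheath keratins, Krt73 was the single member above it. The remaining class held Krt23, Krt42, Krt80 and Krt88 above the filter and Krt222 below it. The 20 keratins below the filter had signals between 2.15 and 130.6 on the 8 arrays. Krt9, Krt39, Krt40, Krt74, Krt85, Krt87 and Krt90 were not analysed here.

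Both 5E1 arrays stood apart from the other 6 for 2 keratins, a hair keratin on the low side and an inner root sheath keratin on the high side. Of all genes tested, 3.05% stood apart on the low side and 1.78% on the high side. The keratin count, 1 of 28 each way, is near these shares. Krt36 is a type I hair keratin and Krt73 a type II keratin of the inner root sheath cuticle. Krt42, a type I keratin known from the nail, was the remaining keratin whose 5E1 and 40-1a arrays did not overlap. Their promoters are shown because the differences after 5E1 turn on these genes. Each runs from 250 bases before to 50 bases after the annotated start, read 5′ to 3′ on the minus strand, from RefSeq on mouse build GRCm38.p6. The Krt36 window is chr11:100105577-100105876, the Krt73 window chr15:101802311-101802610 and the Krt42 window chr11:100269902-100270201. Capitals mark the letters TATAAA, the core of the TATA box.
Krt36: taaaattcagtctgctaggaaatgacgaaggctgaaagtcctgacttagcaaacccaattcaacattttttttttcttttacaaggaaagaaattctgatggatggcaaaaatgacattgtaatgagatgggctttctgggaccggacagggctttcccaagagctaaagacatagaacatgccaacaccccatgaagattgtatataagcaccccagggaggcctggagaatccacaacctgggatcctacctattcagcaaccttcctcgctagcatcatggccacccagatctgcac
Krt73: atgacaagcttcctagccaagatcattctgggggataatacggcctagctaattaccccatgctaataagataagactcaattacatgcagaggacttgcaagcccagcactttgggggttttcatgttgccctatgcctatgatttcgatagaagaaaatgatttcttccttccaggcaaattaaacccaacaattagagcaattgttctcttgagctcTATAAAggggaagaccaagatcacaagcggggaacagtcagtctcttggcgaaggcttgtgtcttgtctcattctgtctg
Krt42: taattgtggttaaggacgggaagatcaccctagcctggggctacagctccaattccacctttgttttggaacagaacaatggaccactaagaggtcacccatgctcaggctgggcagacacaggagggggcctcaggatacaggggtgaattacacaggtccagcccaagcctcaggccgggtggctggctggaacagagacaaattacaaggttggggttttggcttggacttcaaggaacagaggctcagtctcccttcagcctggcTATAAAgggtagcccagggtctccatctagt
TATAAA began 30 bases before the start in Krt73 and 20 bases after it in Krt42, on the coding strand, and these letters were not in the Krt36 window. On either strand, TATAAA was in 18 of 33 windows of 32 keratin genes (54.5%) and in 13.6% of 32851 windows of all genes. By class, with no test between these small counts, it was in 7 of 7 inner root sheath windows, 5 of 7 hair, 3 of 10 suprabasal, 2 of 4 simple, 0 of 2 basal, 0 of 1 inducible and 1 of 2 of the remaining class. Between 40 and 20 bases before the start, on the coding strand, it was in 12 of the 33 keratin windows (36.4%) and 1.99% of all. GACCACCCA, a site bound by the Hedgehog-regulated Gli factors, was in 0 of the 33 keratin windows and 0.253% of all. TGANTCA, bound by AP-1 factors, was in 2 of 33, both windows of Krt13, and 7.81% of all. The motifs do not overlap one another, and a match or its lack describes these letters in these windows.

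The arrays fell into 3 sets by their overall likeness, and these sets cross the treatments. Replicate 1 of 5E1, 40-1a and PBS formed the first, replicate 2 of 5E1, 40-1a and cyclopamine the second, and replicate 1 of cyclopamine with replicate 2 of PBS the third. Pearson's r between arrays over all genes tested, as a description, was 0.977 to 0.984 within sets and 0.942 to 0.972 between them. Markers of the labelled tissue were present: 14 of 14 measured epithelial genes other than keratins and 14 of 14 mesenchymal genes, among them the dental factors Msx1, Pax9 and Barx1, were above the filter. All 12 skeletal muscle genes and 12 of 15 genes of cornified epithelium other than keratins (not Ivl, Sprr1b or Flg) were above it as well. As a check of the treatment, the Hedgehog feedback genes Ptch1, Gli1 and Hhip differed between 5E1 and 40-1a by log2 differences of -2.31 (SE 0.30), -2.22 (SE 0.40) and -1.58 (SE 0.46; -1.04 without 40-1a replicate 1). Between cyclopamine and PBS they differed by -0.63 to 0.08. None of the 3 passed an adjusted p of 0.05 in limma in either comparison without a block. Between 5E1 and 40-1a, Ptch1 passed with the array set as a block (adjusted p 0.00107) and with the replicate number as a block (0.00519), and Gli1 with the array set as a block (0.00165). The array sets were drawn from the same values that were tested, so p-values with that block are no independent support.

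**Figure D1:**
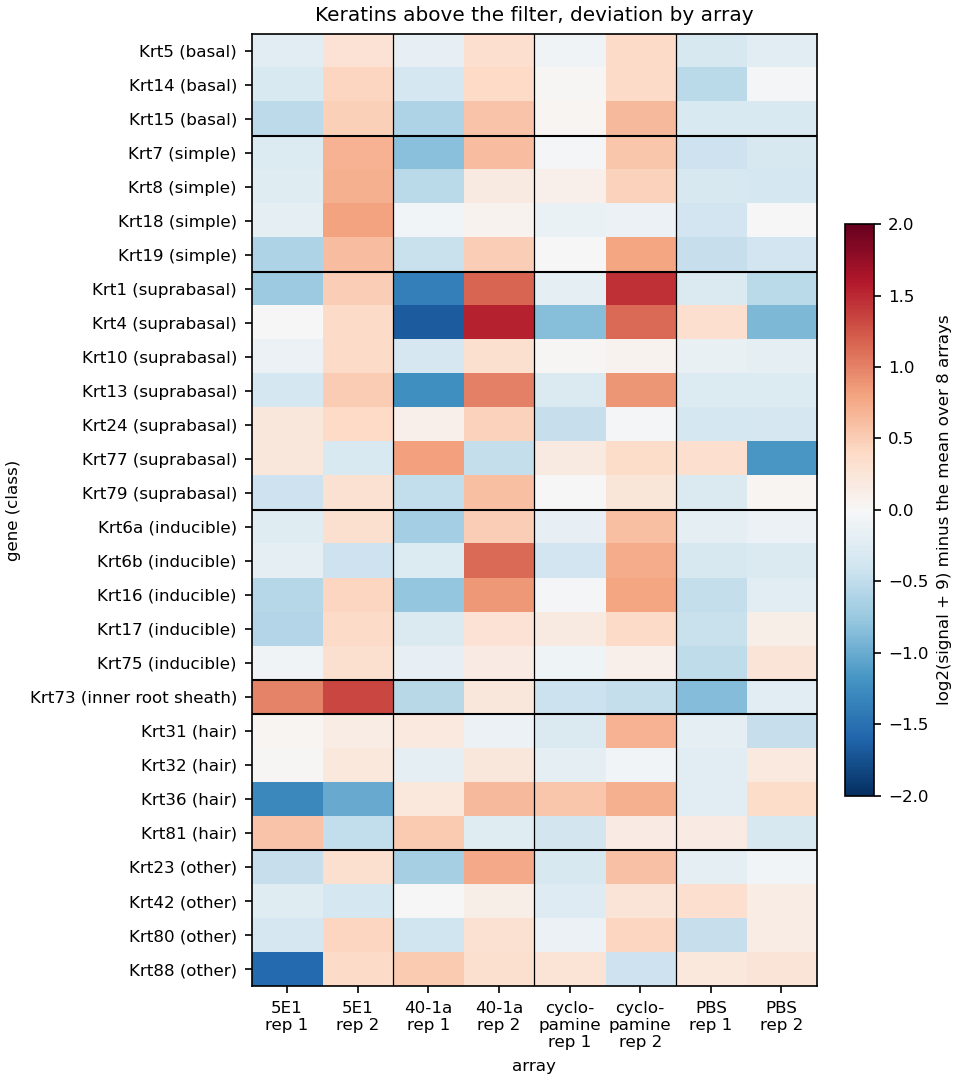
Deviation of each of the 28 keratins above the filter (rows, with class) on each of the 8 arrays (columns), as log2(signal + 9) minus the gene's mean over the arrays, blue below and red above the mean. Most basal, simple, suprabasal and inducible keratins are red on replicate 2 of 5E1, 40-1a and cyclopamine, while Krt36 is blue and Krt73 red on both 5E1 arrays.

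Most keratins had their highest signal on an array of the second set, whatever the treatment. Of the 28 keratins, 24 were highest on replicate 2 of 40-1a, 5E1 or cyclopamine, 8 on each, and 11 were lowest on 40-1a replicate 1. The array sets were drawn from these same data, and the like counts were not made over all genes tested. Krt5, the type II basal keratin, had signals of 17809.9 and 25299 after 5E1, 18431 and 26151 after 40-1a, 19810.2 and 27069 after cyclopamine and 16654 and 17685 after PBS. It was high on replicate 2 of the first 3 treatments, with a 1.63-fold range. Its partner Krt14 ran from 10085 on PBS replicate 1 to 19729 on 5E1 replicate 2 (median 14551). Krt15, a type I keratin of basal cells, ran from 11114 on 40-1a replicate 1 to 26655 on cyclopamine replicate 2 (median 15608).

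The widest ranges of all 28 keratins were those of the suprabasal keratins Krt4 and Krt1. Krt4, the type II keratin of the oral lining, ran from 1408 on 40-1a replicate 1 to 13064 on 40-1a replicate 2, a 9.28-fold range within a single treatment (median over the 8 arrays 5060.1). The other Krt4 probe set gave 643 and 10304 on these arrays. Krt13, the partner of Krt4, had the same lowest and highest arrays, at 5294 and 25071. Krt1, the type II keratin of suprabasal epidermis, had signals of 2528 and 5944 after 5E1, 1619 and 9469 after 40-1a, 3655 and 11633 after cyclopamine and 3423 and 2892 after PBS. Its range was 7.19-fold, while that of its partner Krt10 was 1.66-fold, from 2154 to 3565. Krt1 and Krt10 are partners in the filament, yet Krt10 stayed far flatter over the same arrays. The other suprabasal keratins above the filter ran from 128 to 251 for Krt24, 28.6 to 139.8 for Krt77 and 141 to 309 for Krt79.

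The simple keratins were likewise highest on arrays of the second set. Krt8, the type II simple keratin, had signals of 1562 and 3019.6 after 5E1, 1264 and 2094 after 40-1a, 1976 and 2537 after cyclopamine and 1470.2 and 1442 after PBS. Krt18, its partner, was 4266 on 5E1 replicate 2 and 1879 to 2564 on the other 7 arrays. Krt7, a type II keratin of glandular and ductal epithelia, ran from 375 on 40-1a replicate 1 to 1101 on 5E1 replicate 2. Krt19, a type I simple keratin also found in basal cells of the mouth, ran from 1452 on 5E1 replicate 1 to 3879 on cyclopamine replicate 2. Among inducible keratins, Krt17 ran from 8133 to 15952, Krt6a from 8795 to 21320.4, Krt16 from 144 to 470.2, Krt6b from 176 to 531 and Krt75 from 157 to 286. Replicate 2 of 5E1, 40-1a or cyclopamine was the highest array for each of these 5. In the remaining class, Krt23 ran from 269 to 739 and Krt80 from 498 to 927. Signals of different probe sets are not on a shared scale, so the order of the genes among themselves is not given.

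Averaged by class, the deviation from each gene's mean over the arrays was -0.37 for basal and -0.59 for suprabasal keratins on 40-1a replicate 1, against 0.43 and 0.66 on 40-1a replicate 2. The 14 epithelial genes other than keratins were at -0.49 and 0.46 on the same arrays, the 12 cornified genes at -0.79 and 1.18, and the 12 muscle genes at -1.64 and 1.37. On 5E1 replicate 2 the simple keratins were at 0.71, the epithelial genes at 0.61 and the 14 mesenchymal genes at -0.95. The summed signal of the epithelial genes ran from 17199 to 32642 after 5E1, 17078 to 30341.6 after 40-1a, 21758 to 29842 after cyclopamine and 17380.3 to 21534 after PBS. Hair keratins did not share this pattern, with class means between -0.29 and 0.38. In whole germs, a larger share of epithelial cells and more keratin RNA per cell cannot be told apart.

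**Figure D2:**
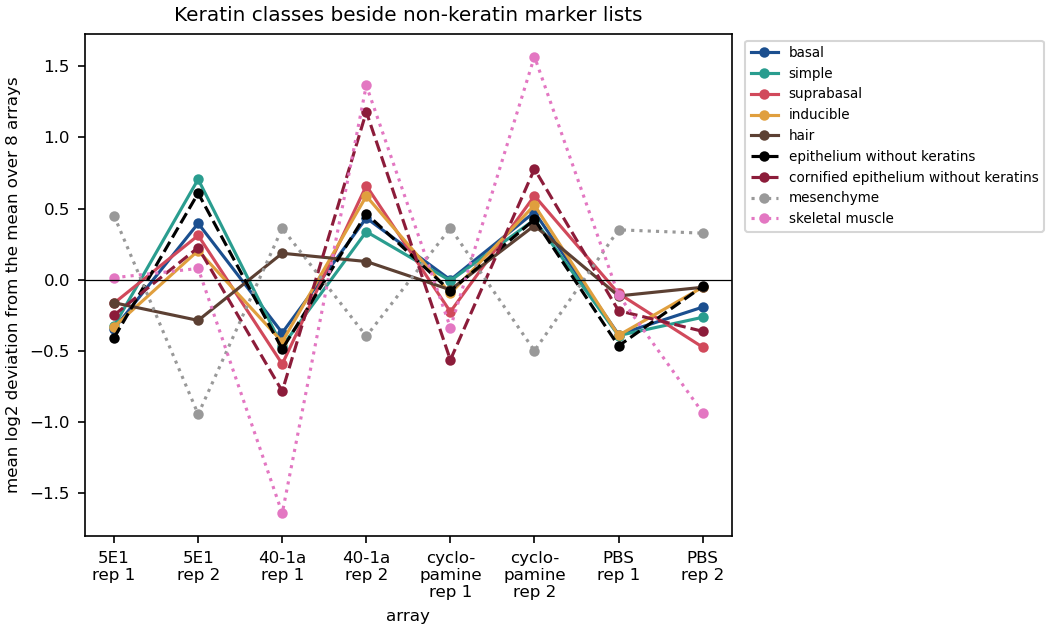
Mean deviation (log2 units, y axis) of the keratins of each class above the filter, and of non-keratin marker lists, on each of the 8 arrays (x axis); lines join values to guide the eye and are not a course in time. Basal, simple and inducible keratins move with the epithelial list (black, dashed), which goes from -0.49 to 0.46 between the 40-1a arrays. The 4 hair keratins average 0.19 and 0.13 on those arrays. Suprabasal keratins go from -0.59 to 0.66 there. From PBS replicate 1 to PBS replicate 2 they go from -0.10 to -0.48, while the epithelial list goes from -0.47 to -0.05.

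Setting 5E1 against 40-1a addresses the effect of blocking the ligand, with an antibody of the same class as the control. After 5E1, Krt36 was lower and Krt73 higher on both arrays than on any other array of the study, and the basal keratins were level. No gene passed in this comparison. limma's moderated test, two-sided with Benjamini-Hochberg adjustment over 13008 genes, called 0 genes (0%) and 0 of 28 keratins at an adjusted p of 0.05. At an unadjusted p under 0.05 there were 2 keratins, Krt36 and Krt73, against 159 genes (1.22%). Over the 28 keratins, 14 differences were above 0 and 14 below, with a median of 0.02. Over all genes tested, 46.7% were above 0 and the median was -0.01.

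Krt36, the hair keratin, had signals of 140.3 and 173 after 5E1, 414 and 561 after 40-1a, 524 and 589 after cyclopamine and 307 and 463 after PBS. The group means were 156 ± 22.9 (SD, n = 2) after 5E1 and 488 ± 104 (SD, n = 2) after 40-1a. Both 5E1 arrays lay below the other 6, which no other keratin above the filter did, and 3.05% of all genes tested did. On the log2(signal + 9) scale, used for all differences here and understating those of low signals, Krt36 differed by -1.58 (SE 0.28, 95% interval -2.22 to -0.93), 2.98-fold lower. Its unadjusted p from limma was 0.000516 and its adjusted p 1.0, so it did not pass. Within array sets the difference was -1.50 between replicates 1 and -1.65 between replicates 2. It lay between -1.79 and -1.36 when single arrays were left out.

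Krt73, the inner root sheath keratin, had signals of 461 and 589.6 after 5E1, 153 and 269 after 40-1a, 168 and 162 after cyclopamine and 120.4 and 195 after PBS. The means were 525 ± 90.9 (SD, n = 2) after 5E1 and 211 ± 82.1 (SD, n = 2) after 40-1a. It was the single keratin above the filter with both 5E1 arrays above the other 6, against 1.78% of all genes tested. The log2 difference from 40-1a was 1.32 (SE 0.35, 95% interval 0.52 to 2.13), 2.50-fold higher, with an unadjusted p of 0.00559 and an adjusted p of 1.0 in limma. It was 1.54 between replicates 1 and 1.11 between replicates 2, and 0.93 to 1.72 without single arrays. For Krt36 and Krt73 alike, the difference stayed over 2-fold within both array sets, although neither passed the adjustment. Its sign there, and without single arrays, was fixed in advance, since the 5E1 and 40-1a arrays do not overlap for these genes.

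The other hair shaft and sheath markers give little to set beside these genes. Of 9 measured that are not keratins, 4 were above the filter, with a median difference of 0.02 between 5E1 and 40-1a. Hoxc13, a regulator of hair keratin genes, and Gata3, a regulator of the inner root sheath, were below it, as were the hair keratin-associated genes Krtap3-1, Krtap16-3 and Krtap8-1. The other 3 hair keratins above the filter, Krt31, Krt32 and Krt81, differed by -0.11 to 0.10. Their signals were low, at 50.5 to 124 for Krt31, 123 to 172 for Krt32 and 161 to 346 for Krt81. The size of the Krt36 difference was beyond that of the other 3 hair keratins tested, which is a description and not a test against them. The 8 hair keratins below the filter were not tested.

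Krt42, the nail keratin, had signals of 687 and 637 after 5E1, 810.3 and 879 after 40-1a, 679 and 974 after cyclopamine and 1025 and 904 after PBS. The 5E1 arrays lay below those of 40-1a, and cyclopamine replicate 1 lay between the 5E1 arrays. The difference was -0.35 (SE 0.21, unadjusted p 0.142 in limma). This rests on a probe set of the kind that Affymetrix marks as open to cross-hybridisation, and the other Krt42 probe set differed by 0.15. The probe sets used for Krt14 and Krt4 are of that kind as well. With Krt36 and Krt42 lower and Krt73 higher, 3 of 28 keratins had arrays of 5E1 and 40-1a that did not overlap. Over all genes tested, 10.8% were lower and 8.65% higher without overlap, so the keratin count is below the background. Differences over 2-fold without overlap were found for Krt73 (0.215% of all genes higher) and Krt36 (0.454% lower).

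**Figure D3:**
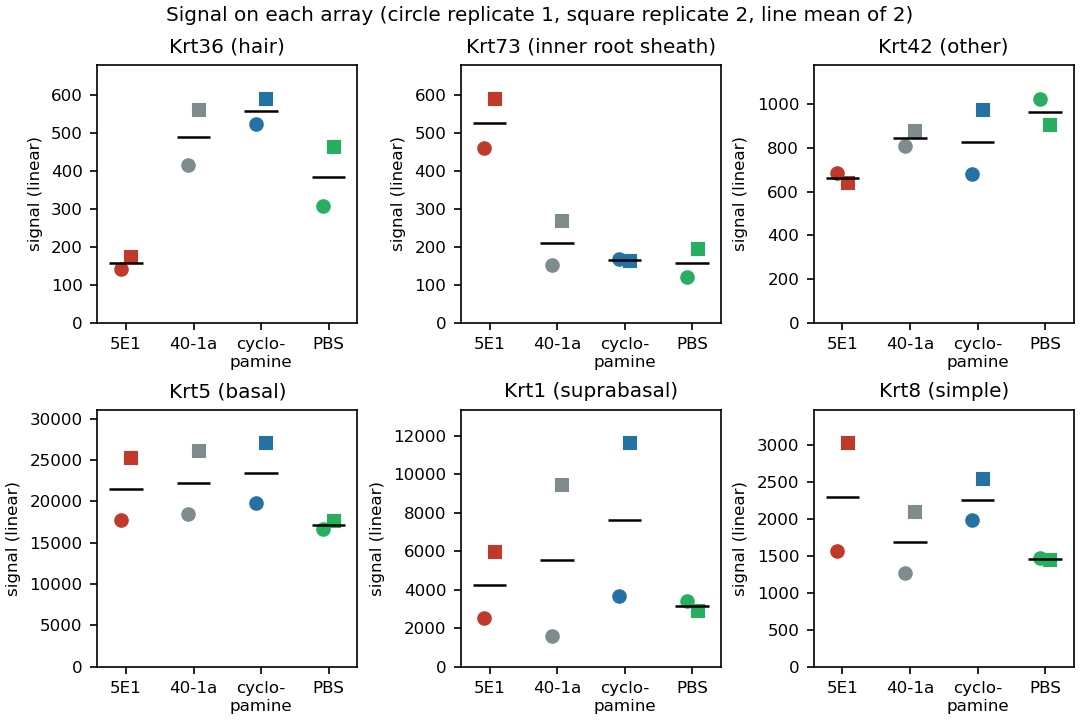
Signal (linear y axis from 0, scale differing by panel) of 6 keratins in each treatment group (x axis); circles are replicate 1, squares replicate 2 and lines the mean of the 2 arrays. Krt36 is lowest at 140.3 and 173 and Krt73 highest at 461 and 589.6 after 5E1, while Krt5, Krt1 and Krt8 are higher on replicate 2 than on replicate 1 after 5E1, 40-1a and cyclopamine.

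The remaining classes differed little between 5E1 and 40-1a. The 3 basal keratins Krt5, Krt14 and Krt15 differed by -0.05 to 0.04, each with an SE of 0.24 to 0.44. All 3 were above 0 with arrays centred on their medians, and all 3 below 0 with arrays centred on the epithelial genes other than keratins. The 7 suprabasal keratins differed by -0.21 to 0.25, with 4 above 0. Their direction turned with the array set: between replicates 1, 6 of 7 were above 0 (median 0.22), and between replicates 2, 2 of 7 were (median -0.30). The cornified genes other than keratins turned in the same way, with medians of 0.59 and -0.75, and the muscle genes too, with 1.32 and -1.33. Their part in the keratin values was not tested.

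The simple keratins had 3 of 4 differences above 0 after 5E1, with a median of 0.31. Krt8 differed by 0.41 (SE 0.34) and Krt18 by 0.31 (SE 0.30), and in both the arrays of 5E1 and 40-1a overlapped. Without 5E1 replicate 2 they were -0.06 and -0.18, and without 5E1 replicate 1 they were 0.89 and 0.79. Within array sets, Krt8 differed by 0.30 between replicates 1 and 0.53 between replicates 2, and Krt18 by -0.12 and 0.73. The epithelial genes other than keratins had a median difference of 0.05, with 10 of 14 above 0, and their part in these values was not tested. Krt6b, an inducible keratin, had signals of 207 and 176 after 5E1 and 194 and 531 after 40-1a. Its difference of -0.73 (SE 0.51) became -0.03 without 40-1a replicate 2 and -1.43 without 40-1a replicate 1. Krt88 was 20.6 and 104 after 5E1 and 115 and 99.3 after 40-1a, and its difference of -1.0 (SE 0.61) became -0.03 without 5E1 replicate 1 and -1.97 without 5E1 replicate 2. Each of these 2 differences is close to 0 without a single array.

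Setting 40-1a against PBS gives the background of an unrelated antibody. Here 27 of 28 keratin differences were above 0, against 49.3% of all genes tested, with a median of 0.22 (all genes -0.00). This turned with a single array: without 40-1a replicate 2 the median was -0.15, with 9 of 28 above 0, and without 40-1a replicate 1 it was 0.63. With the array set as a block the median was 0.02 (15 of 28 above 0), and between replicates 1 of both groups, within the first set, it was 0.03 (16 of 28). limma called 0 genes (0%), and at an unadjusted p under 0.05 there were 0 keratins and 88 genes (0.677%). Without overlap, 5 keratins were higher (9.7% of all genes) and 1 was lower (10.8%). The epithelial genes other than keratins had a median of 0.24, with 13 of 14 above 0, and their part in the keratin shift was not tested. Krt36 differed by 0.35 (SE 0.28), which is opposite in sign to its difference between 5E1 and 40-1a. Krt73 differed by 0.38 (SE 0.35) and by -0.01 without 40-1a replicate 2.

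The same 2 5E1 arrays were also set against PBS, which 40-1a and cyclopamine are compared with as well. The 3 named genes differed in the same direction as against 40-1a. For Krt36 and Krt73 that direction was fixed in advance, since both 5E1 arrays lay apart from the other 6. It is no independent support. Krt36 differed by -1.23 (SE 0.28, unadjusted p 0.0024), 2.34-fold lower, and Krt73 by 1.71 (SE 0.35, unadjusted p 0.0013), 3.27-fold higher. Krt42 differed by -0.53 (SE 0.21, unadjusted p 0.0365) and by 0.09 on its other probe set. Krt24, a type I keratin of differentiating epithelium, had signals of 213 and 241 after 5E1, 193 and 251 after 40-1a, 128 and 175 after cyclopamine and 139 and 141 after PBS. It was higher on the 4 antibody arrays than on the other 4, a split that was not counted over all genes. It differed by 0.66 (SE 0.28, unadjusted p 0.0437) between 5E1 and PBS and by 0.62 (SE 0.28, unadjusted p 0.0551) between 40-1a and PBS, and was singled out after its values were seen. limma called 0 genes (0%) between 5E1 and PBS, and at an unadjusted p under 0.05 these 4 keratins and 193 genes (1.48%). Of the 28 keratins, 25 differences were above 0 (all genes 47.3%), with a median of 0.29. The epithelial genes other than keratins were above 0 in 14 of 14, with a median of 0.30, and their part was not tested. Without 5E1 replicate 2 the keratin median was 0.007, and with the array set as a block it was -0.006, each with 14 of 28 above 0. Without 5E1 replicate 1 it was 0.56 (24 of 28). Without overlap, 7 were higher (9.97% of all genes) and 2 lower (12.4%), and over 2-fold Krt73 was higher (0.269%) and Krt36 lower (0.776%).

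Setting cyclopamine against PBS addresses the effect of a Smo antagonist, which acts downstream of the ligand. The check genes Ptch1, Gli1 and Hhip differed by -0.63 to 0.08 here, against -2.31 to -1.58 between 5E1 and 40-1a. Whether Smo was blocked in these germs was not tested otherwise. Keratins of the basal, simple, suprabasal and inducible classes were mostly higher after cyclopamine, but none passed the test and the other epithelial genes were higher too. limma called 0 genes (0%) and 0 of 28 keratins, and at an unadjusted p under 0.05 there were 0 keratins and 205 genes (1.58%). Of the 28 differences, 24 were above 0, with a median of 0.43. Over all genes tested, 53.1% were above 0 and the median was 0.02. Without overlap, 11 keratins were higher (17.8% of all genes) and 0 were lower (14.4%).

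**Figure D4:**
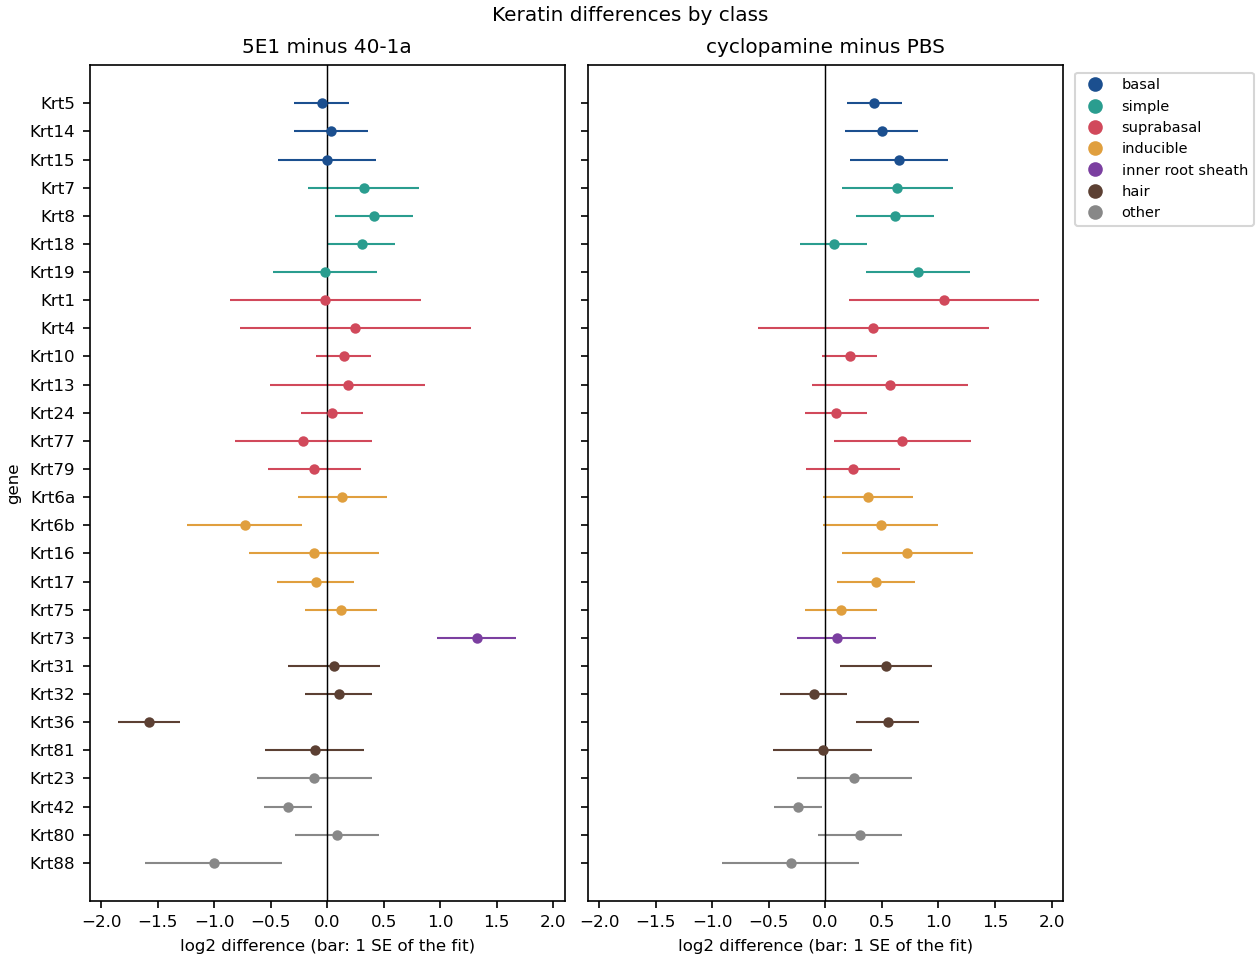
Log2 difference of each of the 28 keratins (points, coloured by class; bars, 1 SE of the fit) between 5E1 and 40-1a (left) and between cyclopamine and PBS (right). On the left the basal keratins lie between -0.05 and 0.04 and Krt36 at -1.58 and Krt73 at 1.32 stand apart; on the right 24 of 28 points are above 0.

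All 3 basal keratins were higher after cyclopamine than after PBS, with a median difference of 0.50. Krt5 differed by 0.43 (SE 0.24), Krt14 by 0.50 (SE 0.33) and Krt15 by 0.65 (SE 0.44). All 4 simple keratins had differences above 0, with a median of 0.63, from 0.07 for Krt18 to 0.82 (SE 0.46) for Krt19. Krt7 differed by 0.64 (SE 0.49) and Krt8 by 0.62 (SE 0.34). All 7 suprabasal keratins were above 0 (median 0.42), the highest being Krt1 at 1.05 (SE 0.84), which was the single keratin over 2-fold without overlap (0.3% of all genes higher, 0.653% lower). All 5 inducible keratins were above 0 (median 0.45), with Krt16 at 0.72 (SE 0.58) and Krt17 at 0.45 (SE 0.34). Hair keratins were split, with 2 of 4 above 0, and Krt36 differed by 0.55 (SE 0.28, unadjusted p 0.0839). Krt73 differed by 0.10 (SE 0.35) and Krt42 by -0.24 (SE 0.21), both with overlapping arrays.

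The shift after cyclopamine was shared by epithelial genes that are not keratins, and its median over all keratins was near 0 within an array set. The 14 epithelial genes other than keratins were all above 0, with a median of 0.41, and 10 of 12 cornified genes were (median 0.51). All 12 muscle genes were above 0 (median 1.13), while 13 of 14 mesenchymal genes were below 0 (median -0.28). With each array centred on the epithelial genes, the keratin median was -0.00, with 14 of 28 above 0. With the array set as a block it was 0.02, again with 14 of 28 above 0. Within the third set, cyclopamine replicate 1 against PBS replicate 2, it was 0.03 with 15 of 28 above 0. There the basal keratins were above 0 in 3 of 3 (median 0.16) and the simple keratins in 3 of 4 (median 0.35, with Krt8 at 0.45 and Krt19 at 0.39), while the epithelial genes were in 6 of 14 (median -0.07). Without cyclopamine replicate 2 it was 0.09 and without cyclopamine replicate 1 it was 0.67. The part of the epithelial share and the array set in single keratin differences was not tested further.

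Several single values moved by over 1.5 times without an array. Without cyclopamine replicate 2, Krt1 differed by 0.22, Krt5 by 0.21, Krt7 by 0.35, Krt14 by 0.31, Krt15 by 0.35, Krt16 by 0.31 and Krt19 by 0.43. Without cyclopamine replicate 1, Krt1 differed by 1.88, Krt5 by 0.66 and Krt16 by 1.14. PBS replicate 1 mattered for Krt14 (0.25 without it), Krt17 (0.17) and Krt36 (0.26), and PBS replicate 2 for Krt17 (0.73) and Krt36 (0.84). The 3 basal keratins stayed above 0 in each of these fits. That sign was fixed in advance, since their cyclopamine and PBS arrays do not overlap, and is no independent support.

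Whether the 5E1 effect differed from the cyclopamine effect was tested as a difference of the differences, over all 8 arrays. Krt36 gave -2.13 (SE 0.39, 95% interval -3.03 to -1.22, unadjusted p 0.000698, adjusted p 1.0 in limma), with -2.42 to -1.84 when single arrays were left out. Krt73 gave 1.23 (SE 0.49, unadjusted p 0.0387). limma called 0 genes (0%) here, and 187 genes (1.44%) had an unadjusted p under 0.05. Over the 28 keratins, 3 of these values were above 0 (all genes 45.2%), with a median of -0.36. That median moved to -0.006 with the array set as a block (14 of 28 above 0) and to -0.05 with arrays centred on the epithelial genes (13 of 28). It was 0.006 without 5E1 replicate 1, 0.13 without 40-1a replicate 2 and -0.03 without cyclopamine replicate 2, and between -0.78 and -0.29 without any other single array. Both blockers against both controls gave a keratin median of 0.19, with 22 of 28 above 0 (all genes 51.4%), beside 14 of 14 epithelial genes other than keratins (median 0.26). The keratin median was 0.03 with the array set as a block (16 of 28 above 0), -0.08 with arrays centred on the epithelial genes (10 of 28), and between 0.02 and 0.36 without single arrays, lowest without 40-1a replicate 1 (15 of 28). There limma called 0 genes (0%), while 159 (1.22%) had an unadjusted p under 0.05. Krt36 differed by -0.51 (SE 0.20) and Krt73 by 0.71 (SE 0.25).

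Partner keratins moved together to different degrees over the 8 arrays. The deviation of Krt5 minus that of Krt14 stayed between -0.18 and 0.23, and for Krt8 minus Krt18 between -0.49 and 0.58. The oral pair Krt4 and Krt13 stayed between -0.63 and 0.61, although each member ranged widely. The epidermal pair Krt1 and Krt10 spread from -1.03 to 1.40, since Krt1 varied by 2.84 log2 units and Krt10 by 0.72.

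Along the chromosomes, neither Krt36 nor Krt73 had a tested neighbour with a like difference after 5E1. All 48 keratins matched RefSeq: type I genes lie in a cluster on chromosome 11, where 24 are measured and 13 tested, and type II genes on chromosome 15 with the type I gene Krt18 beside Krt8, where 24 are measured and 15 tested. Krt36 lies between Krt35, below the filter, and Krt13, which differed by 0.18 between 5E1 and 40-1a. Krt73 lies between Krt72 and Krt2, both below the filter, and the next tested gene on the side of Krt2, Krt1, differed by -0.02.

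**Figure D5:**
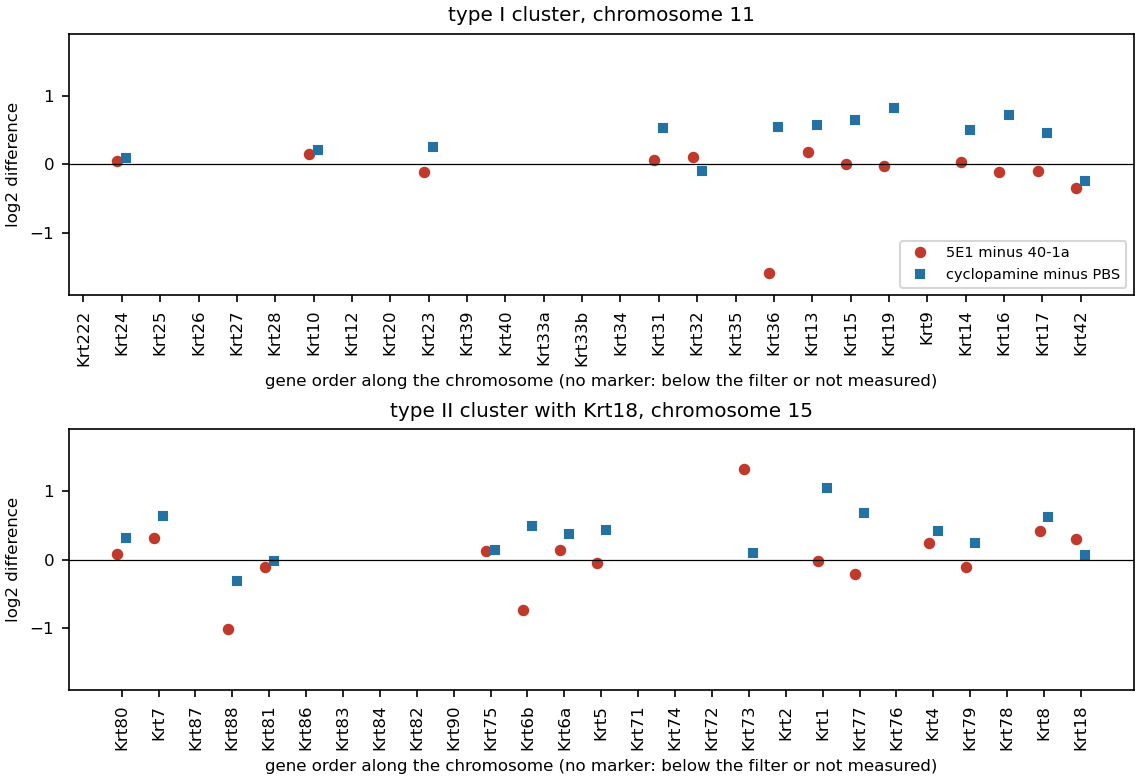
Log2 difference of each tested keratin (circles, 5E1 minus 40-1a; squares, cyclopamine minus PBS) in gene order on chromosome 11 (top) and chromosome 15 (bottom); genes with no marker were below the filter or not measured. Krt36 at -1.58 has Krt13 at 0.18 beside it, and Krt73 at 1.32 has no tested gene directly beside it.

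Genes that anchor keratin filaments or regulate keratin genes did not pass the test in either main comparison. Of 20 listed genes of desmosomes, hemidesmosomes and their linker proteins, 19 were tested. Between 5E1 and 40-1a, 10 of 19 were above 0, with a median of 0.02 and 0 passing the adjusted p. The smallest p-values were those of the desmosomal cadherins Dsc3, at 0.56 (SE 0.36), and Dsg2, at 0.30 (SE 0.21). Without single arrays Dsc3 lay between 0.01 (without 40-1a replicate 1) and 1.12 (without 40-1a replicate 2), and Dsg2 between 0.07 and 0.52 without the same arrays. Between cyclopamine and PBS, 18 of 19 were above 0, with a median of 0.51, and 16 were higher without overlap (17.8% of all genes). The epithelial genes other than keratins were above 0 in 14 of 14 (median 0.41), and their part was not tested. Within the third array set, 17 of 19 anchors were above 0, with a median of 0.28. Dst, which links keratins to hemidesmosomes, differed by 0.75 (SE 0.29) and the linker Plec by 0.53 (SE 0.25; 0.16 without PBS replicate 2 and 0.90 without PBS replicate 1). None of the 19 passed the adjusted p.

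Of 16 listed regulators of keratin genes, 13 were tested. Between 5E1 and 40-1a, 8 of 13 were above 0, with a median of 0.10. The homeobox factor Dlx3 differed by -0.64 (SE 0.38) and the AP-2 factor Tfap2c by 0.47 (SE 0.28; 0.12 without 5E1 replicate 1 and 0.82 without 5E1 replicate 2). Between cyclopamine and PBS, 9 of 13 were above 0 (53.1% of all genes), with a median of 0.22, and within the third array set 5 of 13, with a median of -0.27. The homeobox factor Msx2 differed by -0.47 (SE 0.23; -0.23 without PBS replicate 2 and -0.72 without PBS replicate 1). The Wnt pathway factor Lef1 differed by -0.71 (SE 0.39). For Lef1 it was -0.27 with the array set as a block and -1.14 with arrays centred on the epithelial genes. None of the 13 passed the adjusted p in either comparison.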

How the data were processed

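RNA of molar tooth germs was labelled and hybridised to an Affymetrix mouse array, per the labels' protocols, on 8 arrays (2 per group), whose number limits the precision. The authors deposited MAS5 signals, linear intensity values with 1 per probe set, per the submitters' processing notes. The deposited columns share a trimmed mean of 500.0 (2% trimmed from each end), so they were already scaled, and no background correction or normalisation was added. The version of MAS5 is not given in the sources used here.

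Signals were turned into log2(signal + 9). Probe sets with exactly 1 gene symbol were kept (34945 of 45101; 932 name several genes and 9160 none), and each gene took its probe set with the highest mean. Genes whose mean over the 8 arrays reached the 40th percentile of the probe set means, controls left out, were tested with limma 3.58.1 in R 4.3.3 (lmFit and eBayes with trend, all 8 arrays in a fit with a mean per group, 4 residual degrees of freedom). Benjamini-Hochberg adjustment covered all 13008 genes. Tables were made with Python 3.11.15 and pandas 2.3.3.

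The members, gene classes, marker lists, array sets and tests were chosen with earlier results of these data known, so no list count is independent support. In each of the 2 main comparisons a keratin was named where its arrays did not overlap and its difference exceeded 1 SE; others are named for their dependence on a single array. The fit was tested on simulated data with independent noise on each array and no array sets. That test does not cover deviations shared between arrays, as seen here. Array sets come from average-linkage clustering on 1 minus Pearson's r. Promoters come from RefSeq (GRCm38.p6). Alternatives covered scaling, pseudocount, filter, probe set choice, blocks, weights and leaving out arrays.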

Additional observations from a re-analysis of the deposited data

Results flagged for a closer look

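The 5E1 effect minus the cyclopamine effect on Krt36 was -2.13 log2 units. Both 5E1 arrays (140.3 and 173) lay below the mean of 40-1a (488), and both cyclopamine arrays (524 and 589) above the mean of PBS (385). The cyclopamine part was small, at 0.55 (SE 0.28), 0.18 within the third array set and 0.12 with arrays centred on the epithelial genes. Ptch1, Gli1 and Hhip differed by -0.63 to 0.08 between cyclopamine and PBS. The test of the 5E1 effect minus the cyclopamine effect gave an unadjusted p of 0.000698 and an adjusted p of 1.0 in limma. The lowest adjusted p among the alternatives was 0.245. The value lay between -2.20 and -1.81 under the alternatives that keep all arrays.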

How the results depend on the processing

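Keratins passing an adjusted p of 0.05 numbered 0 in every fit run, in all 6 comparisons. Counting instead 2-fold differences without overlap gave 2 keratins between 5E1 and 40-1a, 1 between cyclopamine and PBS and 2 between 5E1 and PBS. Over all genes, the replicate block called 1 gene between 5E1 and 40-1a, 1 between 5E1 and PBS and 1 between blockers and controls, while the array set as a block called 3, 2 and 2, and 3 for the difference of the 2 effects, where 0 were called before. Ptch1 is among those called between 5E1 and 40-1a with either block and Gli1 with the array set. Neither block called a keratin. Calls with the array set as a block are no independent support, since the sets were drawn from the values tested. Same-numbered arrays deviated together in 5 of 6 group pairs (r 0.323 to 0.591), but not between cyclopamine and PBS (r 0.0016), so the replicate numbers were not taken as pairing the arrays. The Krt36 difference between 5E1 and 40-1a lay between -1.69 and -1.45 with all arrays kept, with adjusted p-values from 0.0771 (array set as a block) to 1.0, and that of Krt73 between 1.21 and 1.44, with adjusted p-values from 0.371 to 1.0. Krt42 reversed, to 0.15 between 5E1 and 40-1a and 0.092 between 5E1 and PBS, when probe sets marked x or s were left out, which puts its other probe set in its place. Leaving out single arrays moved Krt8 between -0.058 and 0.89 and Krt18 between -0.18 and 0.79 in 5E1 against 40-1a, and Krt73 between -0.0076 and 0.77 in 40-1a against PBS. Median centring moved the keratin median from 0.02 to 0.09 (18 of 28 above 0) between 5E1 and 40-1a and from 0.43 to 0.56 (26 of 28) between cyclopamine and PBS, where the median of all genes moved from 0.02 to 0.15. Probe sets of a gene differed for Krt13, whose other probe sets gave -0.24 and -0.02 against 0.57 between cyclopamine and PBS. For Krt17, the other probe set gave 0.35 against -0.10 between 5E1 and 40-1a. Between cyclopamine and PBS, the other Krt14 probe sets gave 1.28 and 0.48 against 0.50, and the other Krt4 probe set 0.73 against 0.42. The cause of the changes was not tested. The 2 arrays per group limit the precision of every value.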
